A study of Mus musculus with 6 samples.

Results

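The 9 genes described here are fibroblast identity genes other than collagens: Pdgfra, Tcf21, Gsn, Ddr2, Vim, Pi16, Thy1, Cd34 and Dpt. They were taken by name from the platform annotation of an Affymetrix expression array, and all 9 had a row of their own among the 23185 rows with a gene symbol. Each was compared between 3 wild type arrays and 3 irisin knockout arrays from mice of the FVB strain, an albino inbred line. Irisin is the peptide hormone shed from the membrane protein encoded by Fndc5. The knockout animals descended from FVB zygotes that received Cas9 mRNA together with 5 guide RNAs, and their controls were wild type littermates. Animals of both groups ate a standard chow with 10% fat for 24 weeks, and the labels give no other treatment. The labels call the material cardiomyocytes in some fields and myocardium in another, and they do not state that each array of a group came from a different animal. The p-values therefore measure the spread between these arrays, which may be in part technical.

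Fibroblasts are the main matrix-producing cells of the heart. Most cardiac fibroblasts derive from the epicardium, where the transcription factor TCF21 is needed for their formation, and in the adult heart PDGFRA, TCF21 and DDR2 are used to recognise them. Genes such as Pi16, Dpt and Cd34 mark fibroblasts of the adventitia and interstitium in many organs, whereas Vim, Gsn, Thy1 and Cd34 are also expressed by other cells, among them endothelium, lymphocytes and muscle. In a sample that mixes cell types, fewer fibroblasts and less RNA of a gene per fibroblast cannot be told apart.

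Values are the authors' RMA summaries, taken to be on a log2 scale, so that a difference of 1 stands for a 2-fold change. Array medians over all rows lay between 2.13 and 2.28. Fndc5 had lower values on the 3 knockout arrays than on any wild type array, a difference of -2.01 (SE 0.54; adjusted p from limma 0.0359), but it stood at 7.68 on knockout replicate 1 against 5.49 and 5.45 on replicates 2 and 3. Which stretch of the gene its probes cover is not given in the sources used here, so this checks the labels only in part. Its call was lost without any 1 array other than knockout replicate 1, with adjusted p up to 0.133. The 10 cardiomyocyte markers averaged 10.90 to 11.02 on the wild type arrays and 10.97 to 11.04 on the knockout arrays, and the defining genes Myh6, Tnnt2 and Tnni3 had means of 11.37 to 12.23 in both groups. Of the 10, 0 fell and Pln, which encodes phospholamban, rose by 0.76 (limma adjusted p = 0.0274), a call lost without any 1 knockout array. At an unadjusted p under 0.05, 3 were higher and 0 lower. Without wild type replicate 1, 1 cardiomyocyte marker was called lower, and 2 were called higher after each array was centred on its median. All values of the 9 fibroblast genes lay above the array medians, the lowest being that of Thy1 on knockout replicate 3, at 2.58.

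As a group the fibroblast identity genes were lower in the knockout, with Tcf21 and Ddr2 as the exceptions. Of the 9, 7 fell, 0 rose and 2 did not pass the test (limma with Benjamini-Hochberg adjustment over 23185 genes, threshold 0.05), and at an unadjusted p under 0.05 0 rose as well. Over all genes, 6.18% were called lower and 10.4% higher, so that 62.8% of the called genes were higher (76.4% after each array was centred on its median). Each of the 7 had all 3 knockout values below all 3 wild type values, as did 17% of all genes. The largest fall was that of Pi16, at 2.59-fold, followed by Thy1 at 2.30-fold, Vim at 2.24-fold and Dpt at 2.08-fold. Gsn, Cd34 and Pdgfra fell 1.75-fold, 1.67-fold and 1.57-fold. The median difference of the 9 genes was -0.81, against -0.05 over all genes. When all genes were split into 10 equal parts by mean level, 6 of the 9 were in the brightest part and Pi16 in the part next to it. In the brightest part the median difference was 0.27 and 11.1% of genes were called lower.

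**Figure D1:**
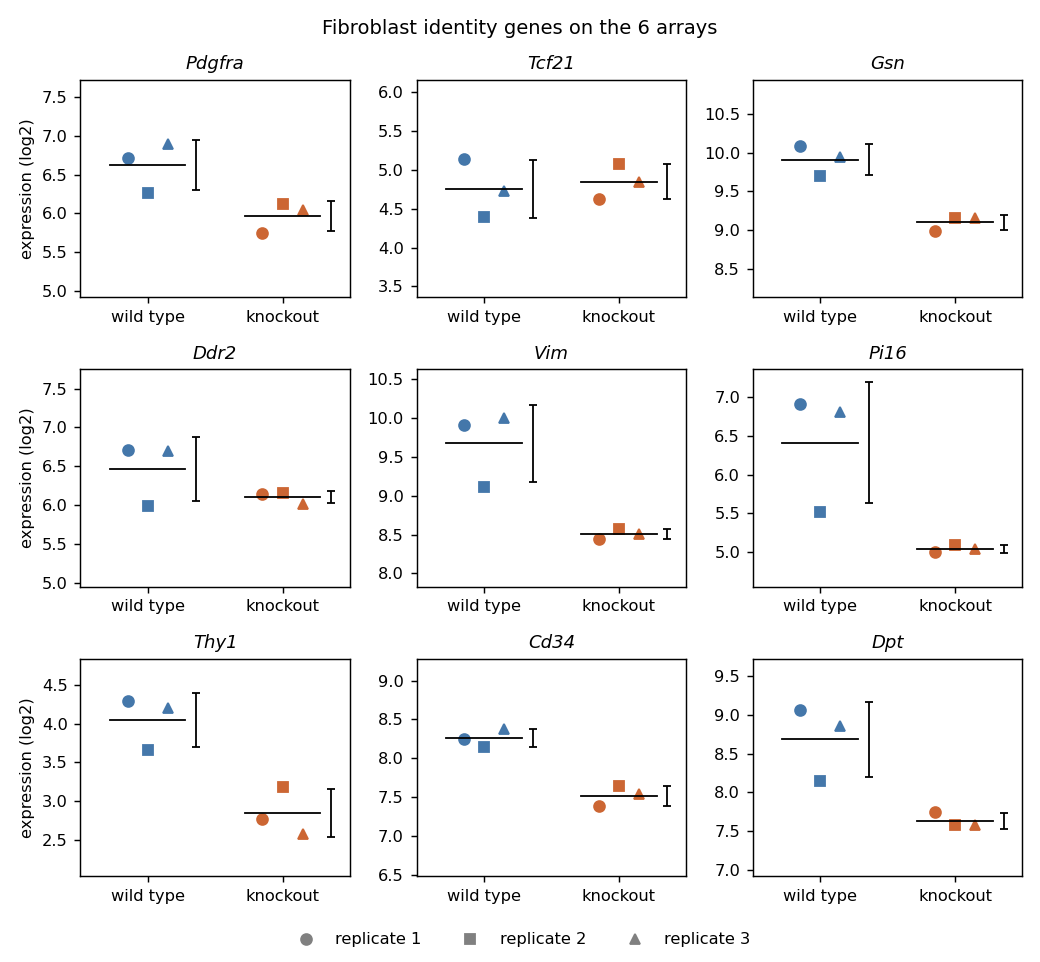
Expression of each fibroblast identity gene on the 6 arrays (log2, vertical axes of equal length but different origin), with wild type in blue and knockout in orange. Points are single arrays, horizontal lines group means and error bars the SD of 3 arrays. The groups overlap only for Tcf21 and Ddr2, and wild type replicate 2 (squares) is the lowest wild type array in all 9 panels.

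Pdgfra encodes the alpha receptor for platelet-derived growth factors, a receptor tyrosine kinase. Its value was 6.72, 6.26 and 6.89 on wild type replicates 1, 2 and 3, and 5.75, 6.12 and 6.04 on knockout replicates 1, 2 and 3. The groups did not overlap, but only 0.15 separated the lowest wild type array from the highest knockout array. The mean fell from 6.62 ± 0.32 to 5.97 ± 0.19 (SD, n = 3), a difference of -0.65 (95% interval -1.07 to -0.24, limma adjusted p = 0.0427). This was the weakest of the 7 calls. It was lost without any 1 array except wild type replicate 2 (adjusted p 0.0840 to 0.149) and after each array was centred on its median (0.0808).

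Ddr2 encodes discoidin domain receptor 2, a receptor tyrosine kinase whose ligands are fibrillar collagens. It read 6.71, 5.99 and 6.69 on the wild type arrays and 6.14, 6.16 and 6.01 on the knockout arrays. Wild type replicate 2 lay below all 3 knockout arrays, while the other 2 wild type arrays lay above them. The difference of -0.36 (95% interval -0.81 to 0.09) did not pass (limma adjusted p = 0.272). Ddr2 passed in 1 of 16 alternative settings, the fit without wild type replicate 2, which gave -0.60 (limma adjusted p = 0.0180).

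Thy1 encodes a surface glycoprotein held by a lipid anchor, known as CD90, which T lymphocytes and neurons also carry. Its wild type values were 4.29, 3.65 and 4.20, and its knockout values 2.77, 3.19 and 2.58. Every knockout array was below every wild type array, with a gap of 0.47. The mean went from 4.05 ± 0.34 to 2.85 ± 0.31 (SD, n = 3), a difference of -1.20 (SE 0.21, limma adjusted p = 0.00667). The call was kept without any 1 array, with adjusted p up to 0.0333. Among 8 lymphocyte markers with a row 0 fell and Cd4 rose by 0.77, and their mean was 1.66 to 1.73 on the wild type arrays and 1.80 to 1.93 on the knockout arrays. Those means lay below the array medians, where low values are not told apart from background. Cd4 itself is among the dimmest 50% of genes, so it was not tested once these were left out. Of the lymphocyte markers that remained in that setting, 0 were called in either direction. The part of lymphocytes in the values of Thy1 was not tested.

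Cd34 encodes a sialomucin found on endothelium and blood progenitors as well as on fibroblasts. It read 8.25, 8.15 and 8.38 in wild type and 7.38, 7.64 and 7.54 in the knockout, a fall from 8.26 ± 0.11 to 7.52 ± 0.13 (SD, n = 3). Wild type replicate 2 was only 0.16 below the mean of the other wild type arrays, the smallest such gap among the 9 genes. The difference was -0.74 (SE 0.13, limma adjusted p = 0.00572) and kept its call without any 1 array. Of 12 endothelial markers 4 fell and 0 rose. These were Vwf, which encodes von Willebrand factor, at -1.89, Egfl7 at -1.27, Fabp4 at -0.68 and Pecam1 at -0.52. At an unadjusted p under 0.05, 6 were lower and 0 higher, and 11 of the 12 differences were negative. Kdr, a receptor for vascular endothelial growth factor, differed by -0.19 (adjusted p = 0.521), and the positive one was the endothelial cadherin gene Cdh5, at 0.17 (adjusted p = 0.406). The endothelial count was 2 without knockout replicate 1 or 2. The mean of the endothelial list ran from 6.86 to 6.98 on the wild type arrays and from 6.27 to 6.54 on the knockout arrays. Its part in the fall of Cd34 was not tested.

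Tcf21 encodes the basic helix-loop-helix factor named above, and it did not follow the surface genes. It stood at 5.13, 4.39 and 4.73 in wild type and at 4.63, 5.08 and 4.85 in the knockout. The groups overlapped, with both the highest and the lowest of the 6 values on wild type arrays. The means were 4.75 ± 0.37 and 4.85 ± 0.22 (SD, n = 3), a difference of 0.10 with a 95% interval of -0.36 to 0.56 (limma adjusted p = 0.799). A fall of up to 0.36 lies within that interval. The sign of the difference turned in 3 of 16 alternative settings, among them quantile normalization. Of 11 partners and relatives of TCF21 with a row, 0 fell and Tcf15 rose by 0.83 (SE 0.14). The partners Tcf3, Tcf4 and Tcf12 differed by 0.27, 0.03 and -0.14, none past the threshold.

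Gsn encodes gelsolin, which severs and caps actin filaments. It was 10.09, 9.69 and 9.95 on the wild type arrays and 8.99, 9.16 and 9.16 on the knockout arrays. The gap between the groups, 0.53, was the widest of the 9 genes. The mean fell from 9.91 ± 0.20 to 9.10 ± 0.10 (SD, n = 3; SE of the difference 0.14, limma adjusted p = 0.00577), and the call was kept in all 16 alternative settings. Among 7 other members of the gelsolin family 1 fell, the capping protein gene Capg, by 1.03 (SE 0.16), and 0 rose. Svil and Flii, which encode supervillin and flightless, differed by 0.02 and -0.09.

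Vim encodes vimentin, the intermediate filament protein of mesenchymal cells. Its wild type values were 9.91, 9.11 and 10.01 and its knockout values 8.45, 8.58 and 8.50. The knockout arrays spanned 0.13 and the wild type arrays 0.90, with replicate 2 at the low end. The mean went from 9.67 ± 0.49 to 8.51 ± 0.06 (SD, n = 3), a difference of -1.16 (SE 0.22, limma adjusted p = 0.00939). Other intermediate filament genes went both ways. Of 9, the nuclear lamin gene Lmna fell by 1.07 (SE 0.15), and the muscle gene Sync, which encodes syncoilin, rose by 1.36 (SE 0.18). The muscle filament gene Des differed by 0.38 without passing (adjusted p = 0.0927), with every knockout value above every wild type value. After each array was centred on its median, 2 of the 9 were called higher.

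Pi16 encodes peptidase inhibitor 16, a protein of the CAP family. It read 6.91, 5.52 and 6.80 in wild type and 5.00, 5.09 and 5.04 in the knockout. Wild type replicate 2 lay 1.34 below the mean of the other wild type arrays, yet still 0.43 above the highest knockout array. The mean fell from 6.41 ± 0.78 to 5.04 ± 0.05 (SD, n = 3), and the difference of -1.37 (SE 0.33) had a limma adjusted p of 0.0228. Pi16 ranked 203 of 23185 genes from the most negative difference. The call was lost without wild type replicate 3 or any 1 knockout array (adjusted p 0.0730 to 0.0789). Leaving out wild type replicate 2 gave -1.82 (limma adjusted p = 0.000385). Of 8 relatives of the CAP family 0 passed in either direction, and 2 were lower at an unadjusted p under 0.05: Pi15 at -1.33 and Glipr1 at -0.49. Without wild type replicate 2, 2 of the 8 were called lower.

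Dpt encodes dermatopontin, a small matrix protein that binds the proteoglycan decorin. Its values were 9.06, 8.14 and 8.86 in wild type and 7.74, 7.58 and 7.58 in the knockout. All knockout arrays lay below all wild type arrays, by 0.40 or more. The mean went from 8.69 ± 0.48 to 7.63 ± 0.10 (SD, n = 3), a difference of -1.05 (SE 0.22, limma adjusted p = 0.0138), which was lost without knockout replicate 2 (0.0598) or 3 (0.0536). Among 6 matrix partners of dermatopontin, Fmod and Fn1, which encode fibromodulin and fibronectin, fell by 2.24 and 1.55. Neither was called without wild type replicate 3, knockout replicate 2 or knockout replicate 3, and 1 was called without knockout replicate 1. Dcn, which encodes decorin, stood at 10.24 ± 0.17 in wild type and 10.23 ± 0.05 in the knockout (SD, n = 3). The 95% interval of its difference reached down to -0.30. Dcn was singled out after its values were seen.

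The promoter sequences of 4 of these genes are shown, since Pi16, Dpt and Vim fell more than 2-fold and Tcf21 did not change detectably. They are the 250 bases before the annotated start of each gene, written 5′ to 3′ along the gene, from RefSeq on build GRCm38.p6. Capitals mark E boxes (CANNTG, the letters that basic helix-loop-helix factors bind) and the TATA box (TATAAA), read on both strands.
Pi16 (chr17:29318632-29318881, plus strand): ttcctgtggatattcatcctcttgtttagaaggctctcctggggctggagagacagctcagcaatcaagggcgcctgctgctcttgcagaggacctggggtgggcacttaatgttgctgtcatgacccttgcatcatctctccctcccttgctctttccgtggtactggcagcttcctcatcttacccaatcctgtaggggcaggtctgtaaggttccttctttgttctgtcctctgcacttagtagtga
Dpt (chr1:164796413-164796662, plus strand): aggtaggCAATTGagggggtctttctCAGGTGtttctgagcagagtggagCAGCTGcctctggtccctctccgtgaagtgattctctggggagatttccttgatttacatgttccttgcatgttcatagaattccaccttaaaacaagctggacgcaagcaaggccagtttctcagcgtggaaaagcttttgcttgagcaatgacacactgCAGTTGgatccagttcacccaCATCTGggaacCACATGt
Vim (chr2:13574061-13574310, plus strand): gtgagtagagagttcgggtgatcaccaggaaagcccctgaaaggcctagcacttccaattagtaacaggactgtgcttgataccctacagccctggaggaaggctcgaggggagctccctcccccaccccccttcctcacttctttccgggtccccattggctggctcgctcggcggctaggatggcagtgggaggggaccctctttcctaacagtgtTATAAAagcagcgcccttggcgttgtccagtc
Tcf21 (chr10:22820144-22820393, minus strand): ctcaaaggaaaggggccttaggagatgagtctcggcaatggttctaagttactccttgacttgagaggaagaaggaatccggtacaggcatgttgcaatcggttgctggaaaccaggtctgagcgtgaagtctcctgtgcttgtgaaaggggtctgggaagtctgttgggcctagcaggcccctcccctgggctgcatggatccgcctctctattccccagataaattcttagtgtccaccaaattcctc

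The Dpt window held 6 E boxes, and 0.274% of all 32851 windows of this length held 6 or more. The windows of Pi16, Vim and Tcf21 held no E box. Of the 9 genes 8 had a window by symbol, Gsn with 3 of them, and E boxes were present for 3 of the 8 genes, namely Pdgfra, Gsn and Dpt. Over all windows 66.2% held an E box. The E box form CAGCTG, which is counted within the E boxes too, was found for Gsn and Dpt and in 13% of all windows. A TATA box was found for Vim, 32 bases before the start, and for Ddr2, against 12.4% of all windows. The GC box GGGCGG was found for Gsn, against 32.7% of all windows. AP-1 letters (TGANTCA), TEAD letters (GGAATG) and the CArG box of serum response factor were found for 0 of the 8 genes, against 6.75%, 12.6% and 1.47% of all windows. Such matches describe letters in a window and are not binding sites.

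The wild type arrays were not alike in these genes. Wild type replicate 2 was the lowest wild type array for 9 of the 9, against 32% of all genes. Its median distance below the mean of the other 2 wild type arrays was -0.59 over the 9 genes and 0.00 over all genes. The mean of the 9 genes was 7.45, 6.77 and 7.39 on wild type replicates 1, 2 and 3 and 6.32, 6.51 and 6.37 on the knockout arrays. Each knockout array was thus below wild type replicate 2 as well, and for 7 of the 9 genes all 3 knockout values were below that array, against 36.9% of all genes. Since that array was the lowest wild type array for all 9, these are the 7 genes without overlap given above and not a further result. Over all genes 17% lacked overlap in that direction. The same array was lowest for 26 of 29 other fibroblast identity genes. Of the red blood cell markers, Alas2, a heme synthesis gene of red cell precursors, read 7.41 there and 4.70 and 4.60 on the other 2. The part of red cells in the low fibroblast values of that array was not tested.

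Relative to Tcf21 on the same array, the other 8 genes were lower in the knockout. Each of the 8 had all 3 knockout ratios below all 3 wild type ratios, which 7.17% of all genes showed. The log2 ratio of Ddr2 to Tcf21 was 1.57, 1.60 and 1.97 in wild type and 1.51, 1.08 and 1.16 in the knockout. That of Pdgfra was 1.58, 1.88 and 2.16 against 1.13, 1.04 and 1.20, a difference of -0.75. Differences ran from -1.47 for Pi16 to -0.46 for Ddr2. The two-sided exact permutation test gave p = 0.1 for each, the smallest that 3 arrays against 3 allow, and 0.1 after Benjamini-Hochberg adjustment over the 8. These ratios do not depend on a constant added to an array. The count stayed at 8 after quantile normalization. Leaving out any 1 array could not lower it, because groups that do not overlap cannot come to overlap when an array is removed. The fits with fewer arrays are therefore no check of this count. The choice of Tcf21 as the reference was made after its values were seen.

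**Figure D2:**
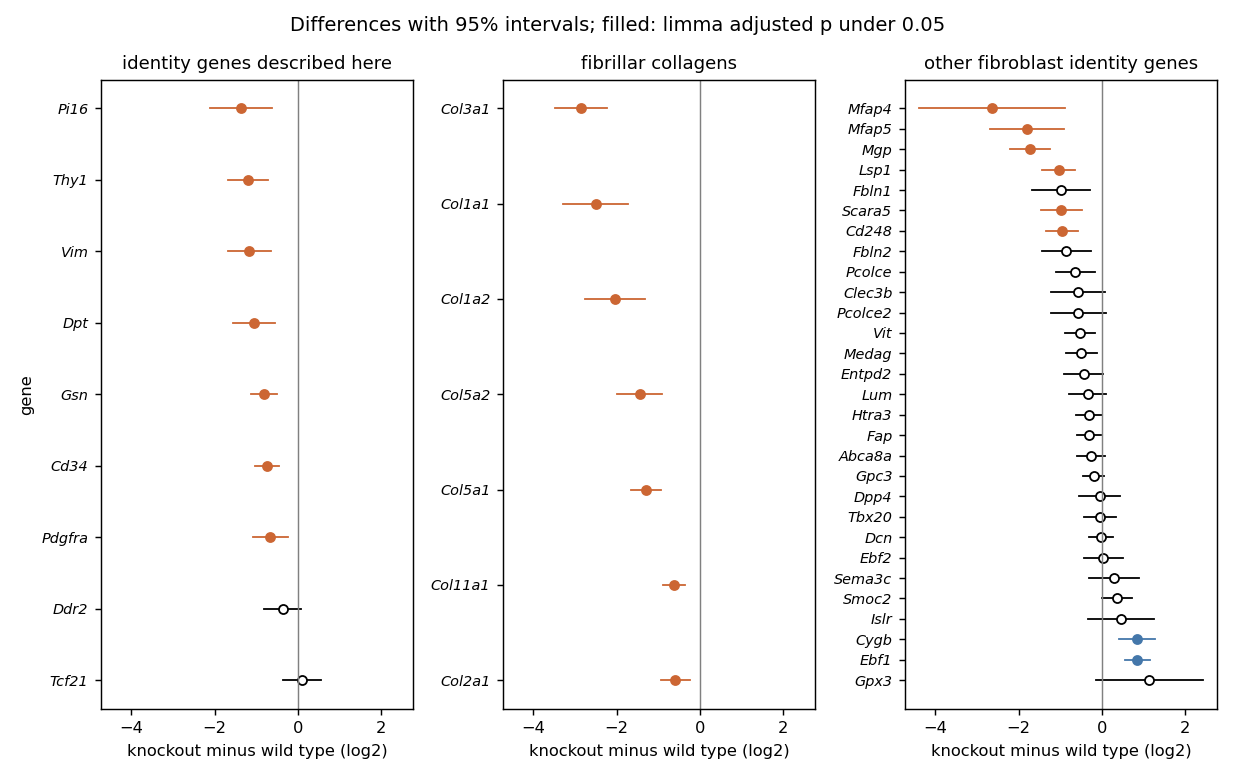
Difference between knockout and wild type (log2, horizontal axes) with its 95% interval for the 9 identity genes, the 7 fibrillar collagens and 29 other fibroblast identity genes. Filled points passed limma at an adjusted p of 0.05, in orange where lower and in blue where higher, and open points did not pass. The identity genes run from -1.37 (Pi16) to 0.10 (Tcf21), while the collagens reach -2.85 (Col3a1).

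The fibrillar collagens, which fibroblasts secrete and DDR2 binds, fell further than most of the identity genes. All 7 of them fell, with differences from -0.58 (Col2a1) to -2.85 (Col3a1) and a median of -1.45. The count was 6 after quantile normalization, after each array was centred on its median, and without any 1 wild type array. Col11a1 had means of 2.08 in wild type and 1.46 in the knockout, below the array medians. Col1a1 went from 8.66 ± 0.81 to 6.16 ± 0.09 (SD, n = 3) and Col1a2 from 7.31 ± 0.74 to 5.26 ± 0.13. Col5a1 fell by 1.29 (SE 0.16). The sister receptor Ddr1 differed by -0.03 (adjusted p = 0.907). The mean of the 9 identity genes exceeded the mean of the 7 collagens by 1.48, 1.49 and 1.33 log2 units in wild type and by 2.29, 2.34 and 2.11 in the knockout. For 7 of the 9 genes every knockout ratio to the collagens was above every wild type ratio, and Pi16 and Thy1 overlapped. Since 96.4% of all genes did the same, this describes the depth of the collagen fall and is nothing particular to these genes. The two-sided exact permutation p was 0.1 for the 7, the smallest possible, and 0.129 after adjustment over 9.

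Other genes by which fibroblasts are recognised went in different directions. Of 29 other fibroblast identity genes with a row, 6 fell, 2 rose and 21 did not pass, with a median difference of -0.33. Mgp, which encodes matrix Gla protein, fell by 1.72 (SE 0.21), Lsp1 by 1.04 (SE 0.18) and Cd248, which encodes endosialin, by 0.95 (SE 0.17). The transcription factor gene Ebf1 rose from 5.96 ± 0.13 to 6.82 ± 0.14 and Cygb, which encodes cytoglobin, from 7.45 to 8.29, a difference of 0.85 (SD of Ebf1 over n = 3, limma adjusted p = 0.00355 and 0.0184). Lum, which encodes lumican, differed by -0.33 and did not pass (adjusted p = 0.312). The count of lower genes depended on single arrays: it was 12 without wild type replicate 2, 3 without wild type replicate 3, and 4 without knockout replicate 2 or 3. It was 10 after quantile normalization.

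Genes of activated fibroblasts and their contractile form were mostly lower in the knockout. Of 17 such genes 13 fell and 0 rose, with a median difference of -1.25, and at an unadjusted p under 0.05 16 were lower and 0 higher. Postn, which encodes periostin, fell from 6.92 ± 0.73 to 5.22 ± 0.21 (SD, n = 3), Sfrp2 by 1.03 (SE 0.17), and Acta2 and Tagln by 2.16 and 2.83. Acta2 and Tagln are smooth muscle genes as well. Of 8 smooth muscle markers 5 fell and 0 rose, among them Myh11 by 2.35 and Mylk by 1.04, and their mean was 6.73, 6.11 and 7.81 in wild type and 5.12 to 5.41 in the knockout. The part of smooth muscle in the activated list was not tested. Only 3 genes of that list fell without knockout replicate 2, 5 without knockout replicate 3, and 7 without wild type replicate 3 or knockout replicate 1. The smooth muscle count was 2, 1 and 2 without knockout replicates 1, 2 and 3. After each array was centred on its median, 1 smooth muscle marker was called higher.

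The ligands of PDGFRA and its relatives did not pass the test. Of 6 genes of this group 0 fell and 0 rose, and at an unadjusted p under 0.05 2 were lower and 1 higher. Without wild type replicate 1 or 2, 1 was called lower, and 1 was called higher after each array was centred on its median. Pdgfrl, a receptor-like gene, differed by -0.91 (adjusted p = 0.0534) and the ligand gene Pdgfa by 0.33 (adjusted p = 0.101). Pdgfrb, the sister receptor found on pericytes, stood at 6.60, 6.58 and 6.91 in wild type and 6.49, 6.89 and 6.87 in the knockout. Its difference was 0.05, with overlapping groups.

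**Figure D3:**
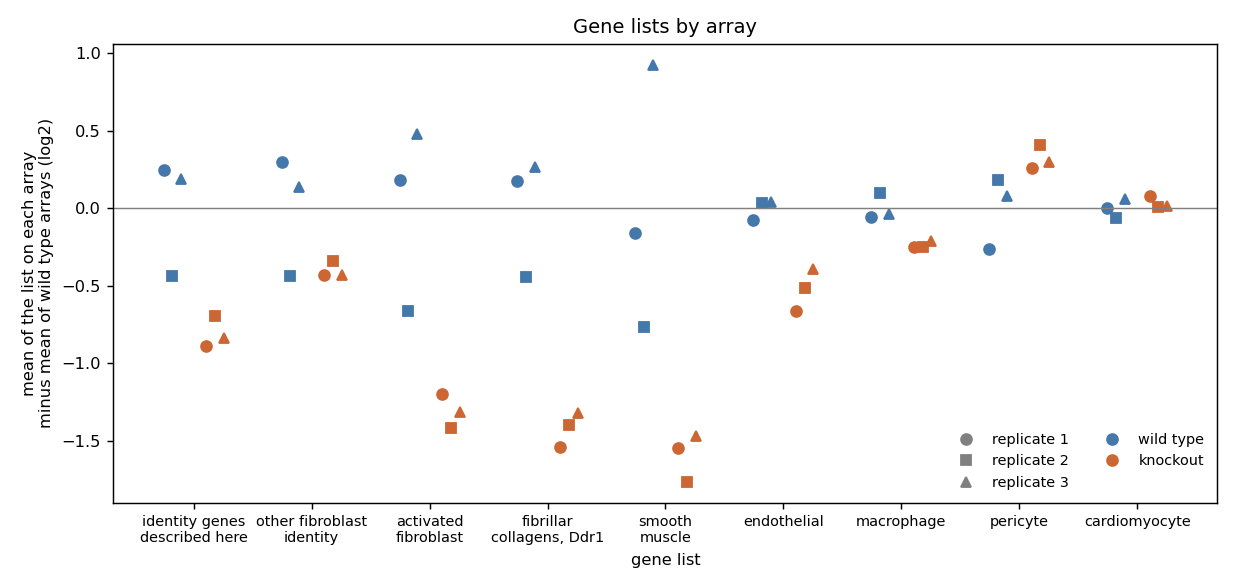
Mean of each gene list on each array, minus the mean of the 3 wild type arrays (log2, vertical axis), with wild type in blue, knockout in orange and a symbol for each replicate number. The 9 identity genes lie lower on all knockout arrays, while the other fibroblast identity genes on wild type replicate 2 (5.40) lie level with the knockout arrays (5.40 to 5.49).

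Markers of other cell types that the samples could hold moved in both directions. Of 8 pericyte markers 3 rose, Rgs5 by 1.23, Kcnj8 by 1.49 and Abcc9 by 1.01 (SE 0.13, 0.21 and 0.25), and 0 fell. Only 2 rose without wild type replicate 3 or any 1 knockout array. Notch3 and Cspg4 of the same list differed by -0.65 and -0.67, with every knockout value below every wild type value (limma adjusted p = 0.0702 and 0.0826). Without wild type replicate 1, 2 pericyte markers were called lower. Abcc9 and Kcnj8 encode the vascular potassium channel gated by ATP. Of 10 macrophage markers Mrc1 fell by 0.66 (SE 0.12) and 0 rose, and 8 of the 10 differences were negative. Cd68 differed by 0.39, with every knockout value above every wild type value (limma adjusted p = 0.0731). After each array was centred on its median, 1 macrophage marker was called higher. Among 8 markers of epicardium, the source of most cardiac fibroblasts, Wt1 and Msln fell by 0.45 and 0.53, and 0 rose. Tbx18 differed by 0.36, with every knockout value above every wild type value (limma adjusted p = 0.181). Of the 8 differences 6 were negative. Neither Wt1 nor Msln fell after each array was centred on its median or with the replicate block. Nor did either fall without wild type replicate 3 or without any 1 knockout array. The summed signal of the list, on a log2 scale, was 11.34 to 11.62 in wild type against 10.98 to 11.19 in the knockout for endothelium, 8.48 to 8.60 against 8.25 to 8.26 for macrophages and 9.99 to 10.37 against 11.07 to 11.26 for pericytes. For the 9 fibroblast genes it was 11.08 to 11.68 against 10.48 to 10.61. The groups overlapped for the 29 other fibroblast identity genes, at 11.71 to 12.55 against 11.84 to 11.95. They overlapped for the cardiomyocyte markers too, at 14.44 to 14.66 against 14.64 to 14.68. Low values are not told apart from background here. The part of the mix of cells in the fibroblast gene falls was not tested.

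Some genes outside the 9 had nearly the same profile over the 6 arrays. Likeness was measured as the root mean square distance between values centred on each gene's own mean, among 11583 genes brighter than the median. The search was not run for other genes, so how close a match it finds for any profile of 6 values is not known. Nearest to the mean profile of the 9 genes were Sparc at 0.074 and Timp2 at 0.0845 log2 units. Nearest to Pi16 was Ahnak2 at 0.0427, to Gsn Ltbp4 at 0.0413, to Vim Col6a2 at 0.0857, to Thy1 Adamts12 at 0.108, to Dpt Meox1 at 0.116 and to Pdgfra Niban2 at 0.041. Among the 9 genes themselves Gsn and Cd34 were closest, at 0.106, and Tcf21 and Pi16 farthest apart, at 0.793.

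**Figure D4:**
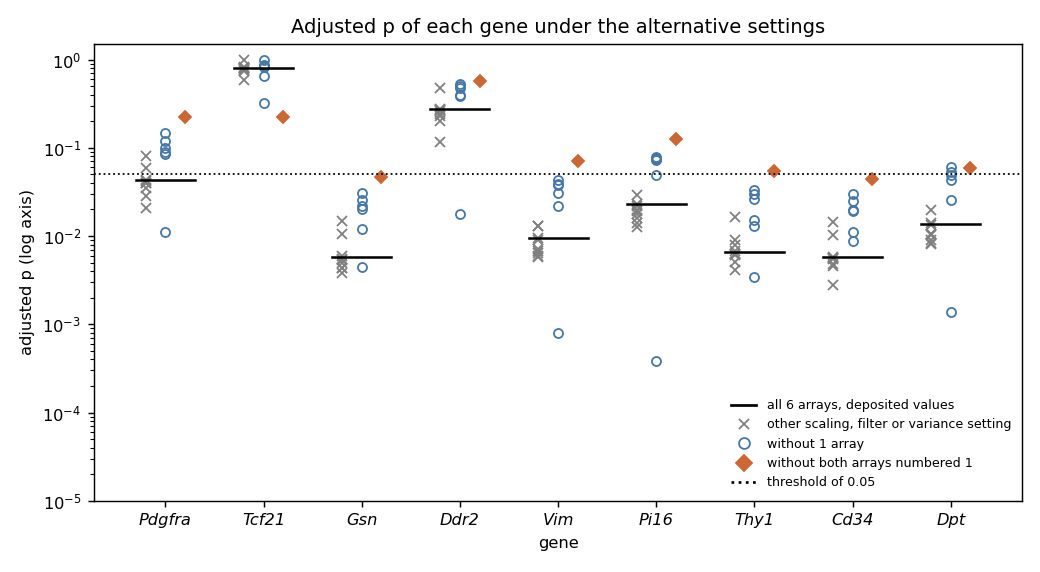
Adjusted p of each fibroblast identity gene (log axis) with all 6 arrays (black line), under other scalings, filters and variance settings (grey crosses), without each array in turn (blue circles) and without both arrays numbered 1 (orange diamonds). The dotted line is the threshold of 0.05. Gsn and Cd34 stay below it throughout, and Tcf21 stays above it.

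The firmness of the 7 calls differed between genes. Gsn and Cd34 kept their calls in 16 of 16 alternative settings, Vim and Thy1 in 15, Dpt in 13, Pi16 in 11 and Pdgfra in 8. Without both arrays numbered 1, of which the knockout array kept much of its Fndc5 signal, Gsn and Cd34 were the only 2 calls left (adjusted p 0.0469 and 0.0438). The differences were -1.02 for Vim, -1.04 for Thy1, -0.92 for Dpt and -1.10 for Pi16 in that setting (adjusted p 0.0715, 0.0540, 0.0590 and 0.124). The sign of the difference was negative in all 16 settings for each of the 8 genes other than Tcf21. A fit of 2 arrays against 2 has few degrees of freedom, and a lost call does not show that a gene did not differ.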

How the data were processed

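Per the labels' protocols, TRIzol total RNA of 6 samples was biotin-labelled and hybridised to Affymetrix arrays. The submitters' processing notes name RMA, affy 1.61.0 and R 3.6.0 for the deposited log2 values. Nothing used here gives the probe set definition or the genome build, and the log2 scale was inferred from the range of 0.0929 to 12.96. Of 25206 rows, 23185 carry 1 gene symbol in the platform annotation, 0 several and 2021 none. Unnamed rows were left out, and no filter on dim genes was applied. Replicates per group (3) set the precision.

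Groups came from the sample titles. Each gene was tested with limma 3.58.1 (lmFit, eBayes) in R 4.3.3, two-sided, with genotype as the only term and Benjamini-Hochberg adjustment over all named genes. Ratios to Tcf21 or to the collagens were compared with exact permutation tests. Plots used matplotlib 3.10.9. The 2 sets of ratios were added after the data were seen. The genes, lists and tests were chosen with earlier results of these data known. Named in each list are up to 4 genes past the threshold by p, or the 2 of lowest p where none passed, besides genes named for their role beside a fibroblast gene. Dcn, Cygb, Lum, Col2a1, Ddr1, Myh6, Tnnt2, Tnni3, Notch3, Cspg4, Cdh5, Kdr, Des, Svil, Flii, Pdgfrb and Tcf3, Tcf4 and Tcf12 fall outside that rule and were named after their values were seen. The same holds for Cd68, Tbx18 and Col11a1. The likeness rule took the 2 nearest genes, of which the nearest is given for single genes. In data simulated for this comparison (23185 genes), 1 of 50 genes lowered by 0.5 log2 units, 35 of 50 lowered by 1 and 49 of 50 lowered by 2 were called. Few genes were changed in the simulation, whereas 16.6% of genes were called in the real data. The adjustment was therefore stricter in the simulation, and these counts do not give the share of real differences that was found. Alternatives were other scalings, filters, variance models, weighted arrays, a block on the replicate number, other thresholds and fewer arrays.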

Additional observations from a re-analysis of the deposited data

How the results depend on the processing

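The 9 fibroblast identity genes kept a count of 6 or 7 lower and 0 higher under other scalings, dim-gene filters, variance models and array weights, and under testing all rows. Counts were smaller with fewer arrays. Leaving out 1 array at a time gave 4 to 8 genes lower, the count of 4 coming without knockout replicate 2 or 3, with 701 to 1593 of all genes lower and 1403 to 2570 higher. Without both arrays numbered 1, 2 of the 9 genes and 938 of all genes were lower. At an adjusted p under 0.01, 4 of the 9 genes were lower, with 528 of all genes lower and 1256 higher, and at 0.10 2212 of all genes were lower. Requiring a difference of at least 1 as well left 4 of the 9 genes, 389 of all genes lower and 793 higher. The median difference of the 9 genes lay between -1.03 and -0.67 in all settings. Centring each array on its median moved the median over all genes from -0.05 to 0.07 and the share of higher genes among those called from 62.8% to 76.4%. Whether the replicate numbers pair the arrays is not given by the labels, and correlations this small do not settle it. The deviations of same-numbered arrays correlated at 0.0896, 0.0478 and 0.07 across genes. Wild type replicates 1 and 3 correlated best with the knockout array of the same number, and wild type replicate 2 with knockout replicate 3 (0.0548). With the replicate block 6 of the 9 genes were lower, with 1330 of all genes lower and 2247 higher, and Pdgfra had an adjusted p of 0.0586. No called difference changed sign. That of Tcf21, which was not called, went from 0.10 to -0.00 under quantile normalization, -0.08 without wild type replicate 2 and -0.01 without knockout replicate 2. The causes of these shifts were not tested. Detection calls were not used here, so how far each gene stood above background is not known.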

Other observations

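Marker lists of adipocytes, Schwann cells and red blood cells had no gene past the threshold, though some alternative settings gave 1. A red blood cell marker was called lower with array weights, with the replicate block and without wild type replicate 1. An adipocyte marker was called lower without wild type replicate 2. Of 4 adipocyte markers 0 passed in either direction, with 0 also at an unadjusted p under 0.05 in limma, and their mean was 1.81 to 2.48 in wild type and 1.90 to 2.12 in the knockout. Plin1 and Cidec, lipid droplet genes of fat cells, differed by -0.17 and -0.27. Of 4 Schwann cell markers 0 passed and 1 was lower at an unadjusted p under 0.05. Sox10, a neural crest transcription factor, differed by -0.39 (adjusted p = 0.144) and S100b by -0.27. Of 2 red blood cell markers 0 passed and 1 was lower at an unadjusted p under 0.05: Hbb-bs, a beta globin gene, at -1.01 (adjusted p = 0.0693). Alas2 differed by -0.90 with overlapping groups. The mean of the list was 3.01, 5.07 and 3.15 on wild type replicates 1, 2 and 3 and 2.59 to 3.15 on the knockout arrays. Podxl and Podxl2, the relatives of Cd34 that encode podocalyxin and endoglycan, differed by -0.29 and -0.31 and did not pass (adjusted p = 0.228 and 0.308).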
